A study of Equus caballus with 4 samples.

Results

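The immediate early genes described here are the Fos and Jun members of the AP-1 complex, the EGR transcription factors, *ier3* and *myc*. They were chosen as 10 gene names (*fos*, *fosb*, *fosl1*, *fosl2*, *jun*, *junb*, *egr1*, *egr2*, *ier3* and *myc*), and every probe that carried one of these names in the scanner files was taken. Of the 43603 different probes on the horse array, 12 carried such a name. They covered 9 of the 10 genes, among 24998 different names on the array, since no probe was named *jun*. A probe was tested where 1 or both channels were well above background on all 4 arrays, which held for 11 probes of 8 genes, among 24673 tested probes in all. On the 11 tested probes both channels were well above background on 4 of 4 arrays, and the number of surrogate or marked spots among the 12 was 0. The *fosl1* probe, of which neither channel was well above background on every array, is given without a test.

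The study asked what β-hydroxy-β-methylbutyrate (HMB), a metabolite of leucine, does to gene expression in equine satellite cells (ESC), the muscle precursor cells of the horse, under oxidative stress. The cells came from m. semitendinosus and were used on day 3 of differentiation in culture. The HMB-treated group received 50 µM HMB for 24 h and 3 mM hydrogen peroxide during the last 1 h, and the control received the same hydrogen peroxide without HMB. Hydrogen peroxide was thus common to both groups, and no cells without it were compared here. Each of the 4 arrays carried HMB-treated RNA in Cy5 and control RNA in Cy3. No array had the dyes exchanged, so the effect of HMB and an effect of the dyes cannot be told apart. All 4 arrays were on 1 slide, and the control is numbered as replicate 1 on every array, so that it may be the same RNA each time. The sources do not tie the replicates to separate horses, and the p-values therefore measure the spread between these arrays, which may be technical. In addition, the methods describe that the culture with the best viability and fusion was used.

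Immediate early genes are transcribed within minutes of a stimulus, without prior protein synthesis, largely through serum response factor and its ERK-phosphorylated partners of the Elk family. Fos proteins pair with Jun proteins through a leucine zipper to form AP-1, EGR proteins bind GC-rich DNA through zinc fingers, and Myc binds DNA as a dimer with Max. In muscle precursors, AP-1 and Myc are known from the proliferating state and are held low as the cells differentiate, and oxidants such as hydrogen peroxide are themselves known inducers of these genes.

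The probes have 60 bases, and their positions are given on EquCab1 as the files state them. The files name no exon or UTR for a probe. The probes of the Fos family are shown together and were compared probe with probe. Whether a probe also matches the transcript of another family member was not tested. The shared runs therefore do not show that a signal belongs to 1 member. Capitals mark a run of 7 bases shared by *fos* and *fosl1*, the greatest length that any pair of the Fos-family probes had in common. The same pair also shares another run of this length, which is left in lower case. The other pairs had runs of 5 or 6 bases.
*fos*: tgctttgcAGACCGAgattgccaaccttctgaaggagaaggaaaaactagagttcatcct
*fosb*: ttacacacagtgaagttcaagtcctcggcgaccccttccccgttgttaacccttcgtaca
*fosl1*: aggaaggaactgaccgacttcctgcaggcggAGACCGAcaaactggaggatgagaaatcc
*fosl2*: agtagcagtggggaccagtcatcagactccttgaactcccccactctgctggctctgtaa

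The probes of *junb* and *egr2*, and the first 30 bases of those of *egr1* and *ier3*, are shown as the detectors of the other values below, without capitals. Over all 12 probes, the longest run shared with a probe of another name was 12 to 15 bases.
*junb*: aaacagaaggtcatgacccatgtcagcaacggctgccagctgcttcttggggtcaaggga
*egr2*: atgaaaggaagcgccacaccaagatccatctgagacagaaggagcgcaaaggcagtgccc
*egr1*, first 30 bases: gcgctttattgcccatgggatatgtggtgt
*ier3*, first 30 bases: tgaaaaaattaaagaaacaccaggtgtacc

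The 4 arrays were of similar quality. The share of spots, controls left out, that stood well above background was 57.6 to 60.6% in Cy3 and 55.2 to 61.8% in Cy5. The number of saturated spots was 0, and the log2 ratios of the arrays correlated with r from 0.837 to 0.920 across tested probes, which are not independent replicates. Of 10 listed muscle markers 8 had a probe, with none for *pax7* and *cdh15*, and all 8 were well above background in the control on 4 arrays. Their summed signal was 178051 to 201548 in the control and 71370 to 111834 in the HMB-treated group. By the threshold for a call given below, 6 of the 8 fell, against 17.2% of all tested genes. The markers *myod1* (log2 ratio 0.32) and *myog* (0.03) were not called. Of 7 tested fibroblast markers 5 rose, against 10.2% of all tested genes, and 0 fell, with sums of 416972 to 507214 and 410760 to 641545. The collagen genes *col1a2* and *col3a1*, the brightest of the 7 markers, were not called on their brightest probes. Of the 7 tested probes of *col3a1*, however, 3 were called. Endothelial markers were well above background in the control on no array for 5 of 5 genes, and 0 of 4 adipocyte markers could be tested. Of the leukocyte markers 2 were tested and 1 rose, with sums of 3652 to 4392 and 4126 to 6169. The part of these shifts in the values of the immediate early genes was not tested. In bulk RNA, fewer cells of a type and less RNA per cell cannot be told apart.

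Of the 8 immediate early genes tested, 5 rose in the HMB-treated group: *ier3*, *myc*, *egr1*, *fosl2* and *junb*. The number that fell was 0, and *fos*, *fosb* and *egr2* did not pass the test. A change was called at an adjusted p of 0.05 or less in limma's test over all tested probes and an FC of at least 1.3. By the brightest tested probe of each gene, 62.5% of these genes rose, against 10.2% of all 7754 tested genes, and 27.4% of all tested genes changed in either direction. By probe, 8 of 11 rose, against 12.1% of all tested probes, with 28.6% changed in either direction and 16.4% lower. The 8 include 4 overlapping probes of *myc*, which are not independent measurements. The median log2 ratio of the 8 genes was 0.55, with a range of 0.02 to 1.39, whereas the median of all tested genes was −0.09. The genes were picked with these results in view, so the counts are a description.

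**Figure D1:**
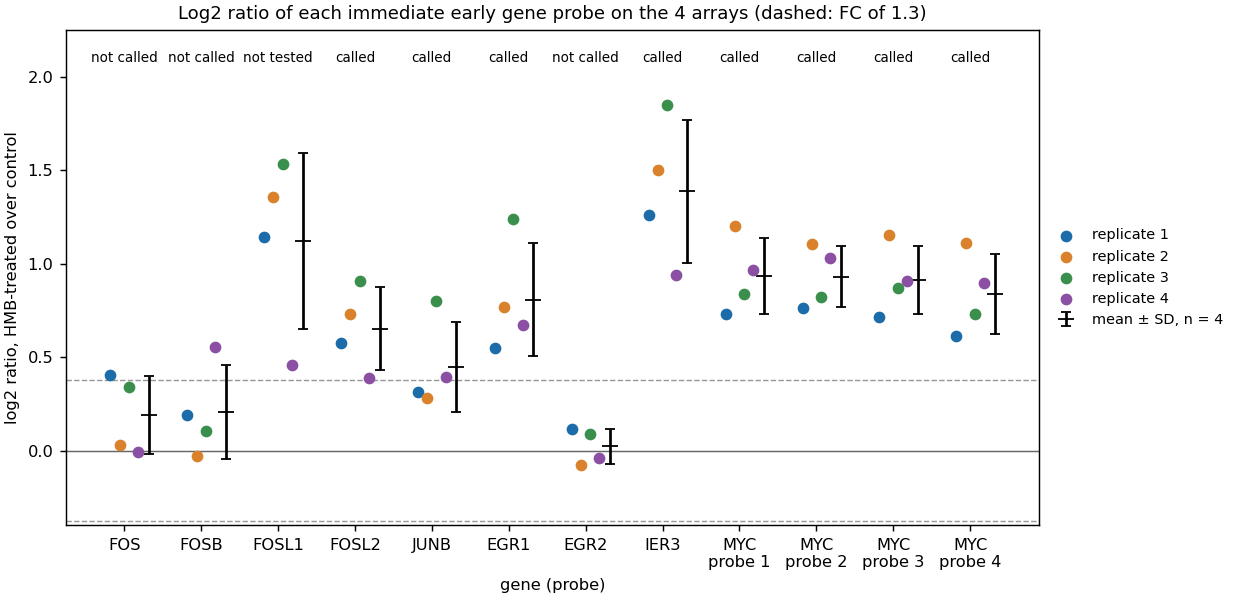
Log2 ratio of HMB-treated over control (vertical axis) for each of the 12 probes (horizontal axis); points are the 4 arrays, and the bar is the mean with its SD (n = 4). The *ier3* points lie between 0.94 and 1.85 and the *egr2* points between −0.08 and 0.11.

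The response of *ier3*, an early response gene of NF-kB and stress signalling that affects cell survival, was the largest among the 8 tested genes. Its probe (transcript ENSECAT00000018086, unplaced sequence, 93484717 to 93484776) gave control signals of 162, 131, 146 and 128 on replicates 1 to 4. The signals of the HMB-treated group were 390, 371, 526 and 245. The lowest HMB-treated signal was above the highest control signal, so the groups did not overlap. The log2 ratios were 1.26, 1.50, 1.85 and 0.94, with a mean of 1.39 ± 0.38 (SD, n = 4) and an FC of 2.62 (limma, adjusted p = 6.45e-04). The ratio stood at percentile 97.1 of all tested probes. With normexp background correction the mean was 0.83, and it was still called. Among 7746 other genes, those whose 4 log2 ratios lay closest to *ier3* were *C26H21orf91*, *grina* and *EQMHCB2*, with root mean square differences of 0.12, 0.17 and 0.17 on the log2 scale. Over 4 arrays many genes can come this close, and nothing follows on shared control.

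Among the EGR factors, *egr1* rose and *egr2* did not pass the test. EGR1 is a zinc finger transcription factor induced by growth factors, stretch and oxidants, and EGR2 is its close relative, known best from myelinating glia and lymphocytes. The *egr1* probe (ENSECAT00000014965, chromosome 14, 37296035 to 37296094) gave control signals of 7188, 6109, 6229 and 5693 and HMB-treated signals of 10501, 10419, 14728 and 9086. Each HMB-treated value was above every control value, with the highest on replicate 3. The log2 ratios were 0.55, 0.77, 1.24 and 0.67, with a mean of 0.81 ± 0.30 (SD, n = 4) and an FC of 1.75 (limma, adjusted p = 0.00259). The call was kept narrowly with the methods' t-test (adjusted p = 0.0455) and in limma's test for an FC above 1.3 (adjusted p = 0.0455). It was lost with spike-in scaling (0.27; limma, adjusted p = 0.112).

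The *egr2* probe (ENSECAT00000011152, chromosome 1, 51332808 to 51332867) was dim. Its control signals were 56.6, 58.8, 66.0 and 42.2 and its HMB-treated signals 61.2, 55.7, 70.2 and 41.1, so that the groups overlapped. The log2 ratios were 0.11, −0.08, 0.09 and −0.04, with a mean of 0.02 ± 0.09 (SD, n = 4). In limma's fit the adjusted p was 0.803 and the 95% interval of the mean ran from −0.14 to 0.18, below the FC of 1.3 at both ends. The *egr1* ratio exceeded the *egr2* ratio on 4 of 4 arrays, by 0.79 ± 0.30 on the log2 scale (exact sign permutation test, p = 0.125, the smallest that 4 arrays allow; adjusted p = 0.208 over the 5 pairs of genes compared, which were chosen after their values were seen).

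**Figure D2:**
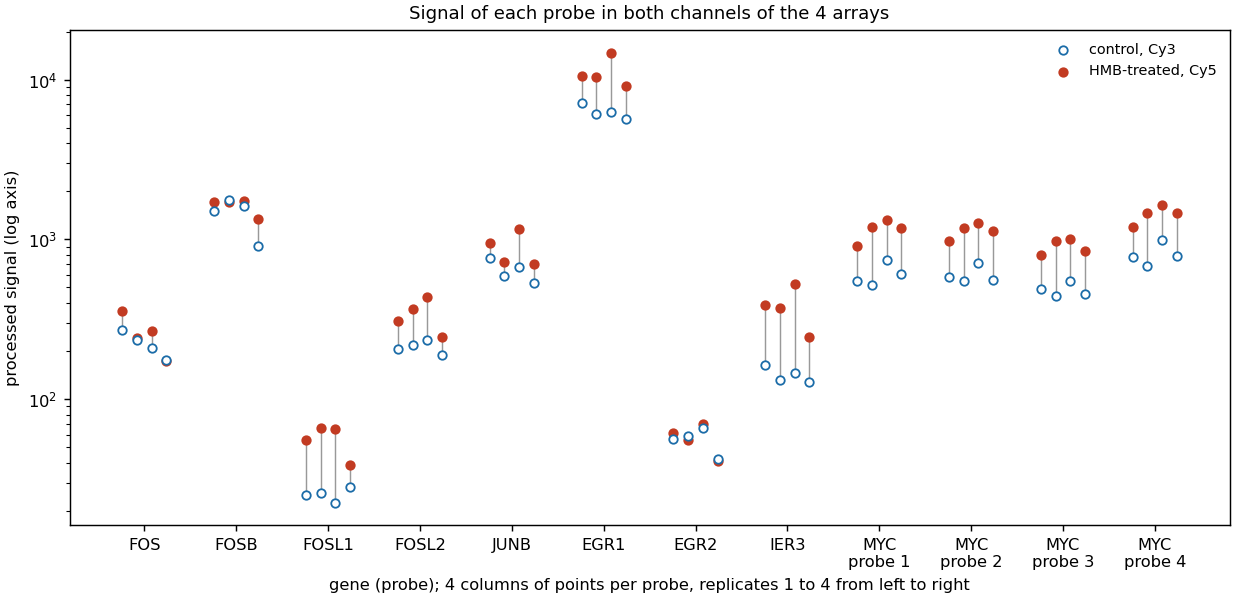
Processed signal (vertical axis, log scale) of each probe (horizontal axis) in the control (Cy3, open points) and in the HMB-treated group (Cy5, filled points); the 4 columns of points per probe are replicates 1 to 4. The *ier3* and *egr1* channels are apart on every array, and the *egr2* channels overlap.

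Within the Fos family, *fosl2* rose, *fos* and *fosb* did not pass the test, and *fosl1* was too dim to be tested. FOSL2 (Fra-2) and FOSL1 (Fra-1) lack the strong transactivation domain of FOS and FOSB and are typically expressed later and for longer after a stimulus. For *fosl2* (ENSECAT00000018723, chromosome 15, 64623997 to 64624056) the control signals were 207, 220, 234 and 188 and the HMB-treated signals 309, 365, 439 and 245. All 4 HMB-treated values were above all control values. The log2 ratios were 0.58, 0.73, 0.91 and 0.39, with a mean of 0.65 ± 0.22 (SD, n = 4) and an FC of 1.57 (limma, adjusted p = 0.00255). With normexp background correction the mean was 0.42, and the call was kept. It was lost in limma's test for an FC above 1.3 (treat, adjusted p = 0.101) and with spike-in scaling (0.03, adjusted p = 0.834).

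The *fos* probe (ENSECAT00000014856, chromosome 24, 20142566 to 20142625) gave control signals of 269, 235, 210 and 175 and HMB-treated signals of 356, 240, 266 and 174. The ranges overlapped. The log2 ratio was 0.40 on replicate 1 and 0.34 on replicate 3, but 0.03 and −0.0050 on replicates 2 and 4. The mean was 0.19 ± 0.21 (SD, n = 4; limma, adjusted p = 0.130), with a 95% interval from −0.03 to 0.41. A second probe on chromosome 24, 20143753 to 20143812, is described in the files as a c-Fos-like transcript and carries only an accession (XM_003364055), so the rule by gene name did not take it. Its log2 ratios were 0.28, 0.08, 0.40 and 0.08, with a mean of 0.21 ± 0.16 (SD, n = 4; limma, adjusted p = 0.0660). Both probes were thus highest on replicates 1 and 3, and neither was called. The second probe was far brighter, with control signals of 9142, 7867, 7615 and 6779. Its HMB-treated signals were 11122, 8340, 10055 and 7180, and the ranges overlapped. In limma's fit its 95% interval ran from 0.02 to 0.40, without correction for the number of probes.

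For *fosb* (ENSECAT00000019056, chromosome 10, 16095501 to 16095560) the control signals were 1498, 1754, 1610 and 912 and the HMB-treated signals 1708, 1719, 1731 and 1341. The groups overlapped, and the difference was carried by replicate 4, whose control signal was the lowest. The log2 ratios were 0.19, −0.03, 0.10 and 0.56, with a mean of 0.21 ± 0.25 (SD, n = 4; limma, adjusted p = 0.148) and a 95% interval from −0.04 to 0.46. The *fosl2* ratio was above that of *fos* on 4 of 4 arrays, by 0.46 ± 0.23 (log2; exact sign permutation test, p = 0.125, adjusted p = 0.208), and above that of *fosb* on 3 of 4, by 0.45 ± 0.45 (p = 0.25 by the same exact test, adjusted p = 0.312). With 4 arrays neither difference could reach 0.05.

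The *fosl1* probe (ENSECAT00000024744, chromosome 12, 16368903 to 16369650) spans 748 bases for its 60, so its sequence is interrupted by 688 bases in the genome. Its control signals of 25.2, 25.7, 22.5 and 28.0 were well above background on 0 of 4 arrays, and its HMB-treated signals of 55.7, 65.9, 65.0 and 38.5 on 3 of 4. Replicate 4 was the array on which the HMB-treated signal was not well above background. These signals gave log2 ratios of 1.14, 1.36, 1.53 and 0.46. With the control set, for each array, to the higher of its own signal and the dimmest signal well above background, the difference came to 2.18-fold, which equals the measured ratio because the control signals were the higher of the pair. This size holds only with the background subtraction of the deposited files. The probe was left out of the test for its low signal. Without the filter on dim probes its mean of 1.12 ± 0.47 (SD, n = 4) would have been called (limma, adjusted p = 0.0427). Without replicate 4, the array with its lowest ratio, it passed the filter only through its HMB-treated signal. It was then called with a mean of 1.34 (limma, adjusted p = 7.23e-04), which is no separate evidence of a rise. The mean was 0.29 with normexp correction and 0.39 without background correction.

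Of the Jun family, *junb* rose, and no probe was named *jun*. JUN is the principal partner of Fos proteins, and JUNB is a weaker activator that can act against JUN. The *junb* probe (ENSECAT00000003759, unplaced sequence, 199780176 to 199780235) gave control signals of 767, 591, 670 and 533 and HMB-treated signals of 955, 717, 1168 and 700. The HMB-treated signal was the higher on each array, but the ranges of the groups overlapped. The log2 ratios were 0.32, 0.28, 0.80 and 0.39, with a mean of 0.45 ± 0.24 (SD, n = 4) and an FC of 1.36 (limma, adjusted p = 0.0128), while scaling to the spike-in RNA turned the mean to −0.14. The call rested on replicate 3, without which the mean was 0.33 and below the FC threshold, and it was not made by treat or by the methods' t-test after correction (adjusted p = 0.0815). A probe that the files describe as the jun proto-oncogene carries only the transcript name ENSECAT00000025803 (unplaced sequence, 255545994 to 255546053). Its control signals were 8498, 8137, 8708 and 6042 and its HMB-treated signals 10032, 7850, 12681 and 7147, with overlapping ranges. The log2 ratios were 0.24, −0.05, 0.54 and 0.24, with a mean of 0.24 ± 0.24 (SD, n = 4). It was not called (limma, adjusted p = 0.0923).

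The transcript of *myc*, a transcription factor of cell growth and proliferation, was read by 4 probes. They lie within 130 bases of chromosome 9 (64503640 to 64503769, ENSECAT00000023507), overlap by up to 40 bases and so are not independent measurements. The brightest gave control signals of 776, 677, 993 and 784 and HMB-treated signals of 1187, 1461, 1647 and 1458. Its HMB-treated signal was above every control signal on each array. Its log2 ratios were 0.61, 1.11, 0.73 and 0.90, with a mean of 0.84 ± 0.22 (SD, n = 4) and an FC of 1.79 (limma, adjusted p = 8.75e-04). The other probes, with control signals between 440 and 739 and HMB-treated signals between 802 and 1320, gave means of 0.91, 0.93 and 0.93, with adjusted p-values between 3.15e-04 and 4.93e-04 in limma. All 4 probes rose, and within an array they differed by an SD of 0.0465 to 0.0641, whereas the array means differed by an SD of 0.19. Replicate 2 was the highest for *myc*, and replicate 3 was the highest for *ier3*, *egr1*, *fosl1*, *fosl2* and *junb*. The *myc* and *egr1* ratios did not differ beyond their spread, by 0.03 ± 0.38 (log2; exact sign permutation test, p = 0.875).

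In the order of the mean ratios, *ier3* was the highest and *egr2* the lowest on all 4 arrays. The ratio of *ier3* was above that of *myc* on 4 of 4 arrays, by 0.55 ± 0.45, and that of *fos* above *egr2* on 4 of 4, by 0.17 ± 0.12. The neighbours between them, from *myc* through *egr1*, *fosl2*, *junb* and *fosb* to *fos*, were separated by 0.01 to 0.24 on the log2 scale and changed places on at least 1 array.

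The directions depended on what the arrays were scaled to. The deposited ratios set the bulk of probes near 0. When the background-subtracted signals were centred on the spike-in RNA instead, the median of all tested probes moved to −0.67, and *fos*, *fosb*, *junb* and *egr2* turned to means of −0.45, −0.38, −0.14 and −0.73. Of the 8 genes, 1 was then called higher (*ier3*, 0.76) and 3 lower (*fos*, *fosb* and *egr2*). Relative to that median, *ier3* stood at 1.43, *egr1* at 0.95, *fosl2* at 0.71, *junb* at 0.53, *fosb* at 0.29, *fos* at 0.22 and *egr2* at −0.05. The 4 *myc* probes stood at 0.91 to 1.03. Spike-in scaling moves every probe of an array by the same amount, so values relative to the median undo it and are no separate evidence. In the deposited ratios, the rise of the 5 called genes is therefore a rise relative to the other probes. With spike-in scaling *ier3* was still called higher. The *egr1* mean (0.27), the *fosl2* mean (0.03) and the means of the *myc* probes (0.24 to 0.35) then stayed above 0 without a call. Spike-in scaling also takes the median spike-in RNA to be equal in both channels, which was not tested. How the amount of spike-in RNA was matched to the cells is not given in the sources used here.

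**Figure D3:**
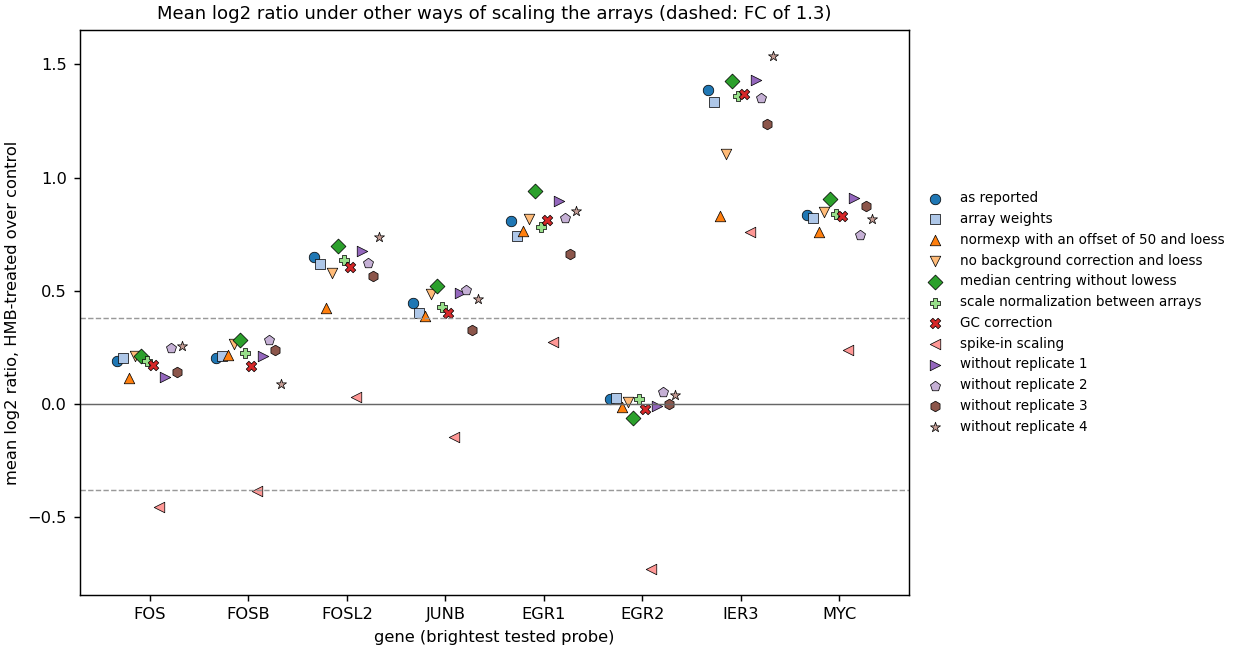
Mean log2 ratio (vertical axis) of the brightest tested probe of each of the 8 genes (horizontal axis) as reported and under other ways of scaling the arrays. Spike-in scaling lowered every gene and left *ier3* at 0.76 as the only one above the FC threshold, marked by the dashed line.

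Genes of the same pathway were read from lists written with earlier results of these data known, and each count stands against 10.2% of all tested genes called higher and 17.2% called lower. Of 6 tested genes among the other AP-1 and basic leucine zipper factors, 2 rose and 0 fell, with a median of 0.12. *batf2*, an interferon-inducible partner of Jun proteins, was well above background in the control on 0 of 4 arrays. It entered the test only through its HMB-treated signal, and was called higher in the deposited ratios (limma, adjusted p = 2.47e-05). With the control bounded as for *fosl1*, the difference was 5.45-fold, a size that holds only with the deposited background subtraction. Its log2 ratio was 0.60 with normexp, 0.90 without background correction and 1.70 with spike-in scaling, and the call was kept in each. *atf3*, a stress-induced member of the same family, had log2 ratios of 0.65, 0.01, 1.00 and 0.42 (mean 0.52 ± 0.42, SD, n = 4; limma, adjusted p = 0.0330). Its call was made on 1 of 5 probes and was lost without replicate 1, 3 or 4, with adjusted p-values of 0.0845, 0.0986 and 0.0717 in limma. It was lost under 8 of 18 alternatives in all, with values of 0.25 with normexp and −0.13 with spike-in scaling.

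Of 15 tested genes among other immediate early genes, 5 rose and 2 fell, with a median of 0.13. *nr4a2*, an orphan nuclear receptor, had log2 ratios of 0.63, 0.79, 1.32 and 0.04 (mean 0.69 ± 0.53, SD, n = 4; limma, adjusted p = 0.0253). Its call was lost under 9 of 18 alternatives, among them without replicate 2 (0.66) or 3 (0.49), with normexp (0.13) and with spike-in scaling (−0.12). *btg2*, an antiproliferative gene, rose by a mean of 0.65 ± 0.40 (SD, n = 4) on 1 of 2 probes, a call lost with the methods' t-test, with treat, without the filter and with spike-in scaling (0.05). *gadd45b*, a stress sensor of the p38 pathway, fell by 0.51, with log2 ratios of −0.72, −0.57, −0.30 and −0.45 (limma, adjusted p = 0.00400). *klf10*, a gene induced by TGF-β, fell by a measured 0.74 but its HMB-treated signal was well above background on 1 array. Its call was lost under 5 of 17 alternatives, with values of −0.17 with normexp and −0.23 without background correction. The EGR relatives *egr3* and *egr4* were on the array but too dim to be tested.

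Upstream, 1 of 8 tested genes of the serum response factor and ERK list rose, 0 fell, and the median was 0.01. The gene was *elk3*, a ternary complex partner of serum response factor, with log2 ratios of 0.41, 0.50, 0.53 and 0.30 (limma, adjusted p = 0.00305) and the same call on 5 of 5 probes, while spike-in scaling gave −0.14. In the Myc network, 2 of 7 tested genes rose and 0 fell, with a median of 0.16. *max*, the obligate partner of Myc, rose by a mean of 0.77 ± 0.21 (SD, n = 4; limma, adjusted p = 0.00119), on 5 of 5 probes. It was at 0.38 with normexp and, with the call lost, at 0.11 with spike-in scaling. *mxd1*, which competes with Myc for Max, rose by 0.65 ± 0.20 (limma, adjusted p = 0.00211), on 3 of 3 probes. Its call was lost with treat, with normexp (0.25) and with spike-in scaling (−0.04).

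Of 11 tested genes on the list of AP-1 targets, 7 rose and 1 fell, with a median of 0.68. Among those that rose, *mmp3* was well above background in the control on 0 of 4 arrays. It and *cxcl8* entered the test, and so this count, only through their HMB-treated signal. *cxcl8*, a neutrophil chemokine, had log2 ratios of 5.96, 5.01, 5.0 and 5.02 (limma, adjusted p = 5.76e-06) and a control signal well above background on 2 of 4 arrays. *il6*, a cytokine, had a mean of 4.32 ± 0.23 (SD, n = 4; limma, adjusted p = 1.60e-06). The deposited ratios put *cxcl8* above *il6* and other background corrections put it below, at 2.95 against 3.62 with normexp and 3.55 against 3.95 with none. *spp1*, which encodes osteopontin, fell, with log2 ratios of −1.17, −1.83, −1.11 and −1.05 (limma, adjusted p = 7.07e-04). Several of these genes are also known targets of NF-kB, and the list does not separate the factors. Of 15 tested Myc targets 0 rose and 2 fell, with a median of −0.13 beside −0.09 for all tested genes, so the list stood near the background. *odc1*, the first enzyme of polyamine synthesis, had log2 ratios of −1.06, −1.15, −1.28 and −1.14 (limma, adjusted p = 5.78e-05). *tfrc*, the transferrin receptor, fell by 0.39 (limma, adjusted p = 0.0128), and its call was lost under 7 of 18 alternatives, among them without replicate 2 (−0.32) or 4 (−0.36), with normexp (−0.14) and without background correction (−0.15).

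**Figure D4:**
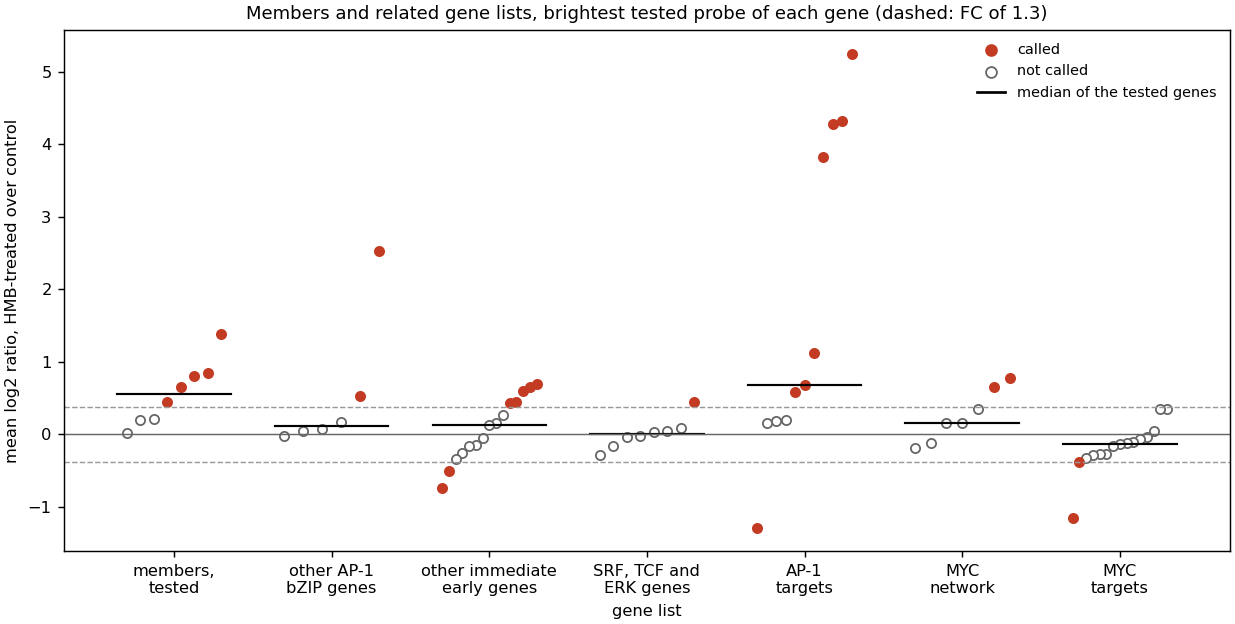
Mean log2 ratio (vertical axis) of the brightest tested probe of each gene in the immediate early group and in 6 related lists (horizontal axis); filled points were called, open points were not, and the horizontal bar is the median of the tested genes. The medians were 0.55 for the 8 immediate early genes, 0.68 for AP-1 targets and −0.13 for Myc targets. Among the points are *mmp3*, *cxcl8* and *batf2*, which were tested only through their HMB-treated signal.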

How the data were processed

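The intensity values were deposited by the authors as scanner files of 2-colour Agilent horse arrays, with a signal per channel after background subtraction and linear and lowess dye normalization in Feature Extraction (10.10.1.1, per the file headers). The deposited log10 ratios of Cy5 over Cy3 were changed to log2 here. Control spots were left out, with any spot that carried a non-uniformity or population outlier mark. Ratios were tested against 0 with limma 3.58.1 in R 4.3.3 (with the data.table package, version 1.17.8) with Benjamini-Hochberg correction over all tested probes, and called at an adjusted p up to 0.05 with an FC from 1.3. A ratio was needed on at least 3 arrays. A gene was given by its brightest tested probe. The procedure was tested on simulated data. Precision is limited by the 4 arrays.

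The genes and lists were chosen with earlier results of these data known. Named are all 10 genes. In each list the 2 largest rises and the 2 largest falls among called genes with the same sign on 4 arrays are named, as are the 3 genes closest in ratio to the member with the largest rise; the number of members with a mean fall was 0. The alternatives were other tests, background corrections, normalizations, filters, a GC correction, the mean over probes, the authors' table of ratios and leaving out each replicate. Probe names are those in the files.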

Additional observations from a re-analysis of the deposited data

Results flagged for a closer look

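Among 27 values examined for a single array far from the others, 2 were marked, where chance marks about 1 in 20 groups. For *cxcl8*, the log2 ratio of replicate 1 was 5.96 and the others lay between 5.0 and 5.02, so that the gap took a share of 0.975 of the whole range. Its control was well above background on 2 of 4 arrays, so these ratios depend on the background subtraction. For *spp1*, the log2 ratio of replicate 2 was −1.83 and the others lay between −1.17 and −1.05, a share of 0.855. None of the tested probes of the immediate early genes had such an array.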

How the results depend on the processing

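The calls of *ier3* held under 18 of 18 alternatives, with means of 0.76 to 1.54. The authors' table repeats the deposited ratios, and keeping marked spots could not alter a ratio of the immediate early genes. These alternatives are therefore no separate evidence. With spike-in scaling, 1 of the 8 rising probes of the immediate early genes was still called higher (*ier3*). The probes of *fos*, *fosb* and *egr2* were called lower, so that 4 probes were called in all. The means turned to −0.45 for *fos*, −0.38 for *fosb*, −0.14 for *junb* and −0.73 for *egr2*. The *egr2* mean, near 0, also changed sign with normexp (−0.012), median centring (−0.0623) and GC correction (−0.0222), and without replicate 1 (−0.0087) or 3 (−3.55e-04), in a range of −0.0087 to 0.055 without a replicate. Testing for an FC above 1.3 (limma treat) left 3 of 5 genes, without *fosl2* and *junb*. Leaving out a replicate gave 4 to 6 genes, with 6 through *fosl1* without replicate 4, where it was tested only through its HMB-treated signal. Over all probes, 7048 calls (42.5% higher) became 2822 with treat (54.6%), 3539 with normexp (55.0%), 4440 without background correction (60.1%) and 20266 with spike-in scaling (4.86%). Median centring gave 51.4% higher. The list counts that follow hold calls in either direction, so more calls with spike-in scaling do not mean more rises. In the other AP-1 list, 2 calls became 1 with the methods' t-test, treat, normexp, both channels required or the mean over probes, 1 to 2 without a replicate, and 5 with spike-in scaling. In the other immediate early list, 7 became 3 with the t-test or without the filter and 0 with treat. In the serum response factor list, 1 became 0 (treat) or 7 (spike-in), and the 7 did not include *elk3*, which was no longer called. In the Myc network, 2 became 1 (treat, normexp) or 4 (spike-in). AP-1 targets went from 8 to 5 (spike-in). Myc targets went from 2 to 1 (t-test, treat, normexp, no filter), 4 (median centring) or 13 (spike-in). The cause was not tested. No paired analysis was possible because, beyond the pairing of both conditions within each array that the ratio already uses, no other group shares the replicate numbers. Low signal kept *fosl1* out of the test, and background correction moved *ier3* to 0.83 and *fosl2* to 0.42 (normexp).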
